A study of Homo sapiens with 6 samples.

Results

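Amino acid transporters were followed through the induction of neural crest from human embryonic stem cells. The members are the genes of 7 solute carrier (SLC) families, SLC1, SLC3, SLC6, SLC7, SLC36, SLC38 and SLC43, taken by gene symbol alone, which gave 59 of the 23284 genes in the deposited table. All libraries came from WA01, the established human line known as H1, of wildtype genotype, sampled as undifferentiated cells (ES, day 0), as pre-neural crest cells (preNC, day 3) and as neural crest cells (NC, day 5), with 2 libraries per group and 6 in all. The labels list dissociation, plating at 20000 cells per cm2, the GSK3 inhibitor CHIR99021 at 3 µM, which activates WNT signalling, and the ROCK inhibitor Y-27632 at 10 µM for every library alike, day 0 included, so the medium of the undifferentiated cells is not told apart there. Poly-adenylated RNA was sequenced. Every value below is the authors' FPKM (fragments counted relative to transcript length and to all mapped fragments) for a whole group, so levels can be compared between genes, but the spread between the 2 libraries of a group and their depth are unknown.

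Amino acids cross membranes mainly through carrier proteins such as these. Members of SLC7 either act alone, as the cationic amino acid carriers for arginine and lysine do, or act as light chains that reach the cell surface bound to a heavy chain of SLC3. SLC1 holds the glutamate carriers and the neutral exchangers, SLC38 the sodium-coupled carriers of glutamine, SLC36 proton-coupled carriers, SLC43 facilitators of leucine and other large neutral amino acids, and SLC6 carriers of glycine, GABA, taurine, creatine and monoamines. Leucine, arginine and glutamine taken up this way feed protein synthesis and are sensed by the kinase complex mTORC1. Some members carry no amino acid: SLC43A3 carries purine nucleobases, SLC6A8 creatine, and SLC6A2, SLC6A3 and SLC6A4 carry noradrenaline, dopamine and serotonin.

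Of 8 pluripotency markers, 6 were lower on day 5 than on day 0, and of 12 markers of the neural plate border and neural crest, 10 were higher. On day 3 against day 0 that second list counted 8 higher and 2 lower of 11 tested, and its summed level was 32.3 FPKM on day 0, 27.0 on day 3 and 242 on day 5. The 4 neural progenitor markers summed to 21.7, 40.9 and 73.6 FPKM, with 2 higher on day 5 than on day 0. POU5F1, a core pluripotency factor, stood at 1087 FPKM on day 0, 85.3 on day 3 and 9.40 on day 5, and the neural plate border factor PAX3 at 0.253, 3.36 and 39.9. Of 5 neuron markers 3 were called higher on day 3 than on day 0, their summed level being 206 FPKM on day 0, 323 on day 3 and 146 on day 5. On day 5, 1 of the 5 was higher and 3 lower than on day 3, and 2 were higher and 0 lower than on day 0. The 6 mesoderm and endoderm markers summed to 5.52, 3.50 and 1.78 FPKM. On day 3, 1 of 3 tested was higher and 0 lower than on day 0, and on day 5, 0 of 2 higher and 1 lower. The astrocyte markers GFAP, AQP4 and ALDH1L1 stayed below 1 FPKM on every day, as did the endothelial markers PECAM1 and CDH5, while KDR, the last gene of that list, was at 22.2, 3.14 and 2.65 FPKM.

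At 1 FPKM or more, 31 members were detected on day 0, 31 on day 3 and 29 on day 5. That is 52.5%, 52.5% and 49.2% of the members, beside 57.7%, 56.9% and 57.1% of all genes. Members at 1 FPKM or more on at least 1 day numbered 34, and 27 were so on every day. The level was concentrated in few genes, since the 5 most abundant members of each day held 62.6% of the members' summed FPKM on day 0, 61.6% on day 3 and 57.1% on day 5. That sum was 963 FPKM on day 0, 680 on day 3 and 485 on day 5. Members at 10 FPKM or more numbered 16, 15 and 10. SLC3A2 was the most abundant member on days 0 and 5, and SLC1A5 on day 3.

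**Figure D1:**
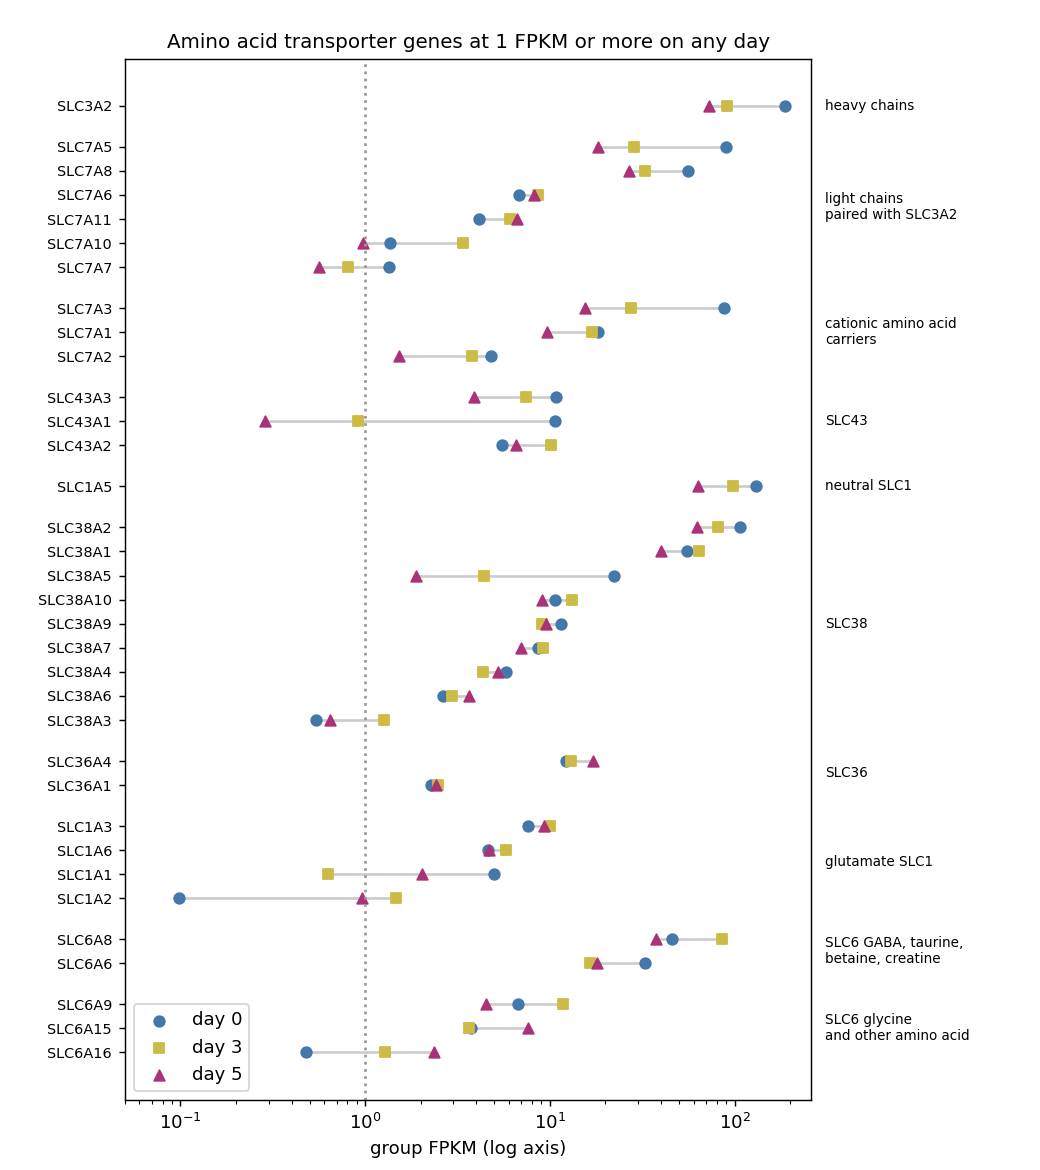
Group FPKM on a log axis for the 34 members at 1 FPKM or more on at least 1 day, with 1 symbol per day (circle day 0, square day 3, triangle day 5) and rows grouped by role. SLC43A1 and SLC38A5 spread widest to the left by day 5, at 0.286 and 1.89 FPKM against 10.7 and 22.2 on day 0, while SLC36A1 lay between 2.27 and 2.47 FPKM on all 3 days.

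A gene is called higher or lower below where the q of the Cuffdiff test in the authors' deposited table is under 0.05, a q adjusted over all genes and all 3 comparisons. Fold changes are log2 ratios of group FPKM, later day over earlier, and ± gives the ratio divided by the deposited test statistic, which serves as an implied standard error. That error often does not match the deposited q. Of the 118 tests of members, 44 were called by q. When the test statistic was read against a normal distribution, 24 of those 44 were not called and 20 were. For this reason the members called both ways are listed for each comparison. Nothing in the labels says that the libraries came from separate cultures, so the p-values may measure only technical spread. The 3 comparisons share libraries in pairs and are not independent. In bulk RNA a lower level in each cell and fewer cells that express a gene cannot be told apart.

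Of the 59 members, 38 were tested in every comparison, 2 in some, and 19 in none. The untested 19 did not pass 0.228 FPKM on any day. They were the heavy chain SLC3A1, SLC1A7, SLC7A9, SLC7A13, SLC7A14, SLC36A3, SLC38A8, SLC38A11, and the SLC6 genes SLC6A2, SLC6A4, SLC6A5, SLC6A7, SLC6A12, SLC6A13, SLC6A14, SLC6A17, SLC6A18, SLC6A19 and SLC6A20. SLC7A13 was listed at 0 on every day.

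By day 3 the heavy chain SLC3A2, the leucine carriers SLC7A5 and SLC43A1 and the arginine carrier SLC7A3 had fallen, while the leucine carrier SLC43A2, the creatine carrier SLC6A8 and the glutamate carrier SLC1A2 had risen. Of 39 tested members, 8 were lower on day 3 than on day 0 (20.5%) and 6 higher (15.4%), beside 11.6% and 8.96% of all 16231 genes tested. Lower were SLC3A2, SLC7A3, SLC7A5, SLC7A8, SLC38A5, SLC43A1, SLC1A1 and SLC6A6, and the higher ones included SLC1A2, SLC1A4, SLC6A8, SLC6A16 and SLC43A2. The median log2 ratio of FPKM plus 1 over the tested members was 0.09, beside 0.03 over all genes tested. Of these 14 calls, SLC1A2, SLC1A1, SLC7A3, SLC7A5, SLC38A5 and SLC43A1 were also called under the normal distribution.

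From day 3 to day 5 the calls ran mostly downward. Of 40 tested members, 9 were lower on day 5 than on day 3 (22.5%) and 2 higher (5.0%), beside 6.68% and 5.93% of 15932 genes tested. Lower were all 3 cationic carriers (SLC7A1, SLC7A2 and SLC7A3), SLC38A5, SLC43A1, SLC43A3, SLC6A3, SLC6A8 and SLC6A9, and higher were SLC1A1 and SLC6A15. The members' median was -0.29, beside -0.04 over all genes tested. SLC1A1, SLC6A3, SLC6A8 and SLC6A9 were also called under the normal distribution.

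Between day 5 and day 0, 14 of 39 tested members were lower (35.9%) and 5 higher (12.8%), beside 14.7% and 12.2% of 16409 genes tested. The median was -0.25, beside -0.01 over all genes tested. Lower were SLC3A2, the light chains SLC7A5, SLC7A7 and SLC7A8, the cationic carriers SLC7A1, SLC7A2 and SLC7A3, SLC1A1, SLC1A5, SLC38A2, SLC38A5, SLC43A1, SLC43A3 and SLC6A6. The higher ones included SLC1A2, SLC1A4, SLC6A15 and SLC6A16. Of the lower ones SLC3A2, SLC7A2, SLC7A3, SLC7A5, SLC38A5, SLC43A1 and SLC43A3 were also called under the normal distribution, and of the higher ones SLC1A2, SLC1A4 and SLC6A16.

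**Figure D2:**
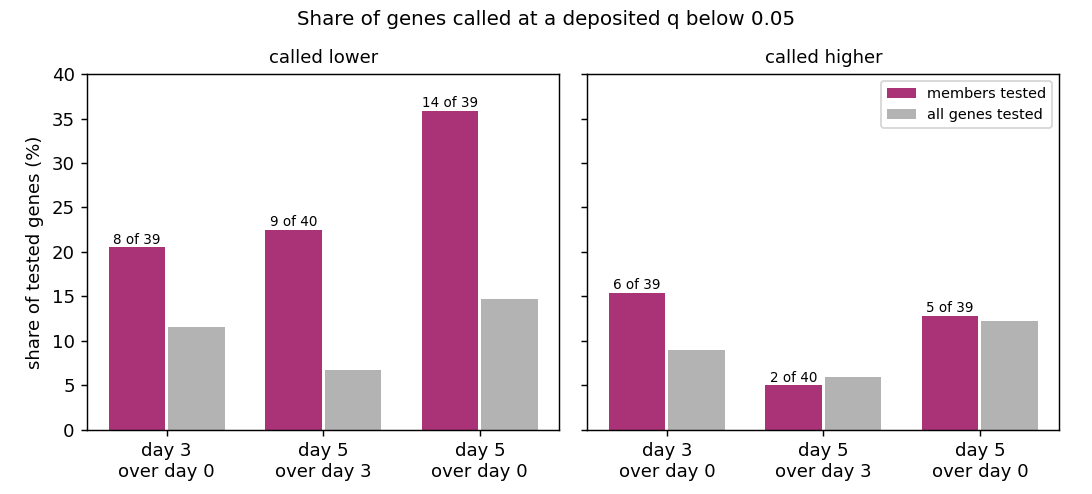
Share of tested genes called lower (left panel) and higher (right panel) at a deposited q below 0.05 in each comparison, members in purple beside all genes in grey, with the members' count above each bar. The 14 of 39 members called lower on day 5 against day 0 stand furthest from the grey bar, 35.9% beside 14.7%, while the shares called higher there are 12.8% and 12.2%.

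**Figure D3:**
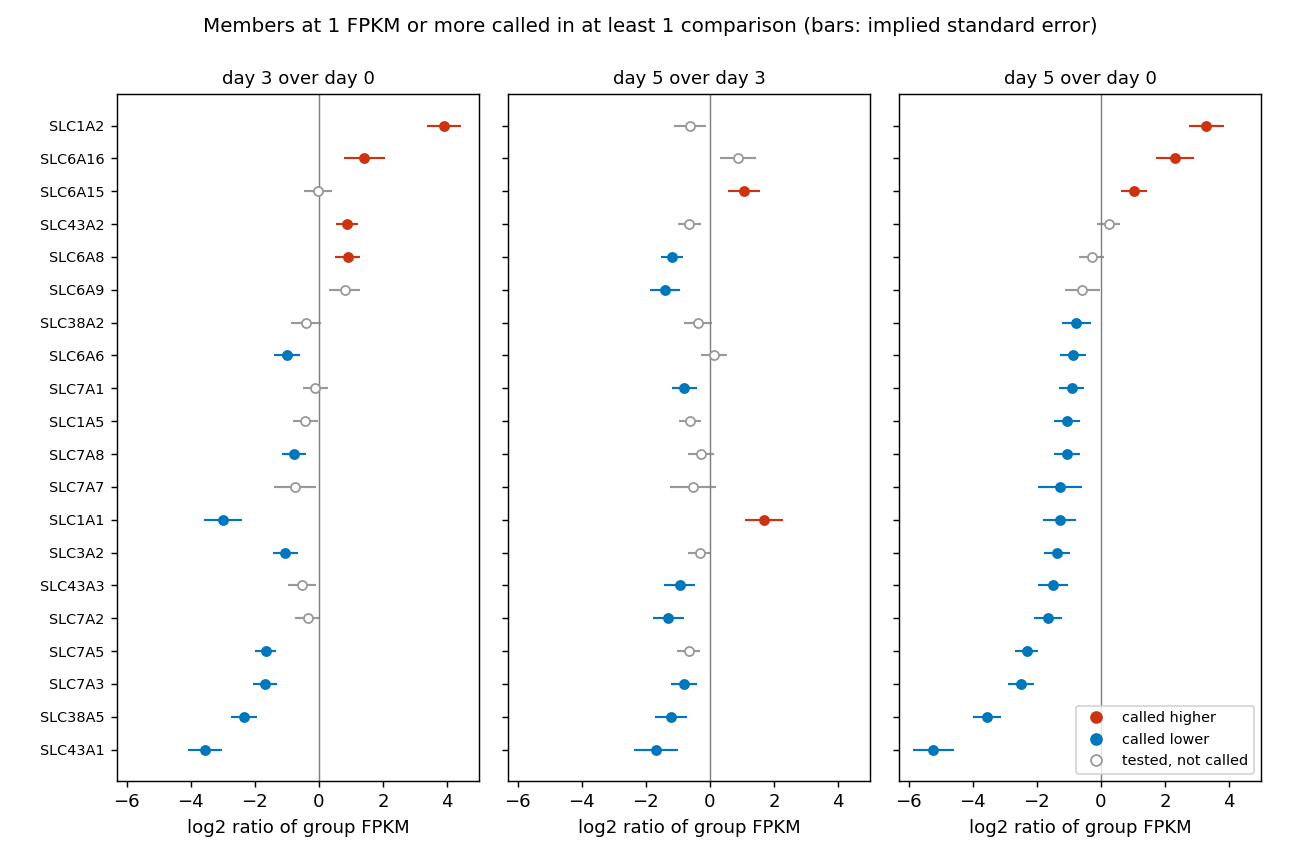
Log2 ratio of group FPKM in each comparison for the 20 members at 1 FPKM or more on at least 1 day that were called in at least 1 of them, ordered by the ratio of day 5 over day 0, with bars for the implied standard error and filled points where called. SLC43A1 reached -5.23 and SLC38A5 -3.55 on day 5 over day 0, and SLC1A2 3.30 at the other end.

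The heavy chain SLC3A2, also known as 4F2hc or CD98, carries its light chains to the plasma membrane (hg19, chromosome 11, 62623484 to 62656355). It stood at 187 FPKM on day 0, 90.9 on day 3 and 72.9 on day 5. SLC3A2 fell by day 3 (log2 -1.04 ± 0.39, q 0.00157 by the authors' deposited table) and was lower still against day 0 on day 5 (-1.36 ± 0.40). The step from day 3 to day 5 was not called (-0.32 ± 0.35). The other heavy chain, SLC3A1, which partners SLC7A9 in kidney and gut, was at 0.0387, 0.0232 and 0.0450 FPKM and was not tested, and its locus overlaps PREPL.

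SLC7A5 (LAT1), the exchanger that brings leucine and other large neutral amino acids into growing cells, lies on chromosome 16 (hg19, 87863629 to 87903100). Its level was 90.3 FPKM on day 0, 28.5 on day 3 and 18.1 on day 5. The level was 3.16-fold lower on day 3 than on day 0 (log2 -1.66 ± 0.32) and 4.98-fold lower on day 5 (-2.32 ± 0.35), each at q 0.000596 by the authors' deposited table. The further step from day 3 to day 5 was not called (-0.66 ± 0.36, q 0.0880 by the authors' deposited table). Its pseudogene copies SLC7A5P1 (11.3, 5.19 and 2.76 FPKM) and SLC7A5P2 (3.11, 1.80 and 1.56) could share reads with it and were below it on every day.

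SLC7A8 (LAT2), a light chain of wider substrate range, stood at 55.8 FPKM on day 0, 32.7 on day 3 and 26.9 on day 5. SLC7A8 was lower on day 3 than on day 0 (log2 -0.77 ± 0.38) and on day 5 (-1.05 ± 0.41). Its fall was shallower than that of SLC7A5, so the order of the pair turned round: SLC7A8 was at 0.617 of the SLC7A5 level on day 0, 1.15 on day 3 and 1.49 on day 5. The difference between the falls of the pair was not tested. Reads that SLC7A5 may share with its pseudogene copies were not resolved and could alter these ratios, that of day 3 above all.

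Among the minor light chains, SLC7A11 (xCT), which imports cystine in exchange for glutamate, was at 4.12, 6.08 and 6.62 FPKM without a call in any comparison. Its ratio of day 5 over day 0 was 0.68 ± 0.38, q 0.0685 by the authors' deposited table. SLC7A6, an exchanger of cationic for neutral amino acids, was at 6.80, 8.65 and 8.19 FPKM, likewise without a call. SLC7A7, the related carrier mutated in lysinuric protein intolerance, went lower by day 5 at 0.560 FPKM against 1.35 on day 0 (log2 -1.27 ± 0.68). SLC7A10 (Asc-1), a carrier of small neutral amino acids, was at 1.36, 3.37 and 0.975 FPKM with no call and a wide implied error (day 3 over day 0, 1.31 ± 1.77). The loci of SLC7A6, SLC7A10 and SLC7A11 overlap other genes of the table, and the sources used here do not give the strand of the reads.

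Set against each other, the 6 light chains that pair with SLC3A2 and the heavy chain itself kept a nearly constant ratio. The light chains summed to 160 FPKM on day 0, 80.2 on day 3 and 61.4 on day 5, which was 0.852, 0.882 and 0.842 of the SLC3A2 level. Within that sum SLC7A5 made up 56.6% on day 0, 35.6% on day 3 and 29.5% on day 5. SLC7A8 made up 34.9%, 40.8% and 43.9%, SLC7A6 4.26%, 10.8% and 13.3%, and SLC7A11 2.58%, 7.58% and 10.8%. These ratios and shares describe group values and carry no test.

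**Figure D4:**
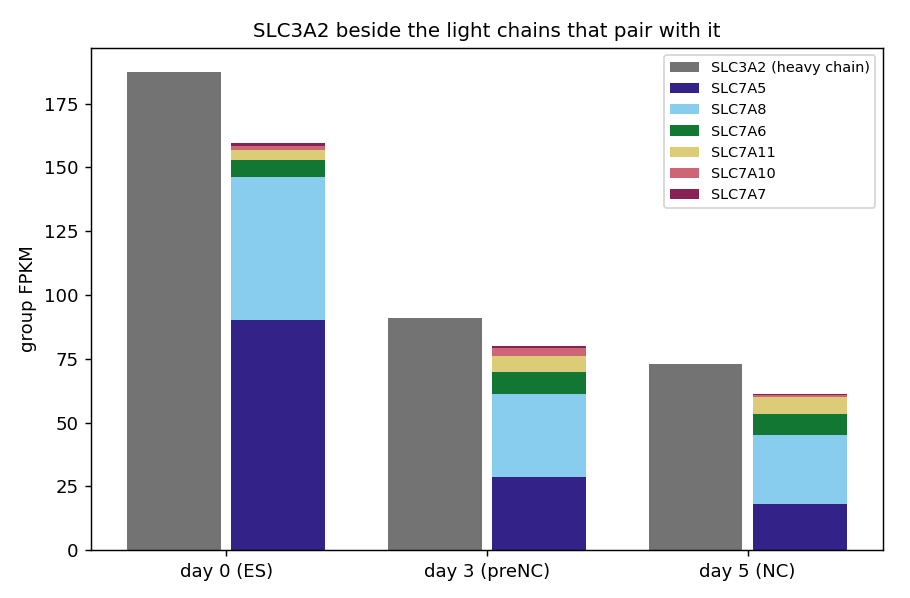
Group FPKM of the heavy chain SLC3A2 (grey) beside the stacked FPKM of the 6 light chains that pair with it, by day. Both columns shrink together over the days, while SLC7A5 makes up 56.6% of the stack on day 0, 35.6% on day 3 and 29.5% on day 5.

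The cationic carriers, which bring in arginine and lysine, summed to 111 FPKM on day 0, 48.1 on day 3 and 26.8 on day 5, and all 3 were lower on day 5 than on day 0. SLC7A3 (CAT3) was the most abundant, at 87.8, 27.5 and 15.6 FPKM (hg19, chromosome X, 70145430 to 70150975). It fell by day 3 (log2 -1.68 ± 0.39) and again by day 5 (-0.82 ± 0.41), to a level 5.64-fold below day 0. SLC7A1 (CAT1), the carrier found in most cell types, was at 18.2, 16.9 and 9.71 FPKM. It did not pass the test on day 3 (-0.11 ± 0.38) and was lower on day 5 than on day 3 (-0.80 ± 0.39). SLC7A2 (CAT2) followed the same course at 4.82, 3.77 and 1.53 FPKM, with -0.35 ± 0.40 on day 3 over day 0 and -1.30 ± 0.49 on day 5 over day 3. SLC7A3 held 79.2% of the summed level of these carriers on day 0, 57.0% on day 3 and 58.0% on day 5. The related genes SLC7A4 and SLC7A14 did not pass 0.283 and 0.174 FPKM on any day. SLC7A4 was not called where tested, and SLC7A14 was not tested.

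The SLC43 facilitators took different courses. SLC43A1 (LAT3), a carrier of leucine and other large neutral amino acids, had the lowest log2 ratio of day 5 over day 0 among the 39 tested members. It was at 10.7 FPKM on day 0, 0.911 on day 3 and 0.286 on day 5 (hg19, chromosome 11, 57252004 to 57283192). The ratio of day 3 over day 0 was -3.55 ± 0.54 and that of day 5 over day 0 -5.23 ± 0.63, a 37.4-fold lower level. On the scale of FPKM plus 1 it ranked 159th from the bottom of the 16409 genes tested on day 5 against day 0. SLC43A2 (LAT4), its close relative, was at 5.52, 10.2 and 6.52 FPKM and was called higher on day 3 than on day 0 (log2 0.88 ± 0.34, q 0.0383 by the authors' deposited table). SLC43A2 was not called on day 5 against day 3 (-0.64 ± 0.36) or against day 0 (0.24 ± 0.37). The summed SLC43 level was 27.0 FPKM on day 0, 18.5 on day 3 and 10.7 on day 5. Of that sum SLC43A2 made up 20.5%, 54.8% and 61.1%, and SLC43A1 39.6%, 4.92% and 2.68%. SLC43A3 was at 10.8, 7.45 and 3.87 FPKM, lower on day 5 than on day 3 (-0.94 ± 0.48) and than on day 0 (-1.48 ± 0.47).

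Promoter windows are shown for SLC7A5 and its partner SLC3A2, and for SLC43A1 and SLC38A5, which had the deepest falls. Each window runs from 250 bases before to 50 after a RefSeq gene start (GRCh38.p14, 5′ to 3′ on the gene's strand). Capitals mark matches to CACGTG, the E-box bound by MYC and related factors, or to TGATGNAA on either strand, a form of the element bound by ATF4 with its C/EBP partners. The SLC7A5 window is chr16:87869458-87869757 (minus strand), that of SLC3A2 chr11:62881449-62881748 (plus strand), that of SLC43A1 chr11:57515653-57515952 (minus strand) and that of SLC38A5 chrX:48470211-48470510 (minus strand). The other windows of SLC3A2 and SLC43A1 hold neither motif.
SLC7A5: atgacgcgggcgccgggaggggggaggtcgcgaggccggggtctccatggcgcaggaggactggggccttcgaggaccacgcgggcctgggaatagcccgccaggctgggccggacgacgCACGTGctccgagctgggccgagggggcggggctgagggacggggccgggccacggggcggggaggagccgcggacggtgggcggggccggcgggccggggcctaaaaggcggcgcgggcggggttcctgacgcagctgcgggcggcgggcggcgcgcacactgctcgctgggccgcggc
SLC3A2: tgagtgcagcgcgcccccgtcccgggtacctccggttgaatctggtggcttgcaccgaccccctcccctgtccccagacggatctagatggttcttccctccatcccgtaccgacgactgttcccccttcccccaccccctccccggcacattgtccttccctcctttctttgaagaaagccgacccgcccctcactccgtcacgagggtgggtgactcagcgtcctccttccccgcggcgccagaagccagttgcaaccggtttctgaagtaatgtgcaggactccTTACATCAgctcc
SLC43A1: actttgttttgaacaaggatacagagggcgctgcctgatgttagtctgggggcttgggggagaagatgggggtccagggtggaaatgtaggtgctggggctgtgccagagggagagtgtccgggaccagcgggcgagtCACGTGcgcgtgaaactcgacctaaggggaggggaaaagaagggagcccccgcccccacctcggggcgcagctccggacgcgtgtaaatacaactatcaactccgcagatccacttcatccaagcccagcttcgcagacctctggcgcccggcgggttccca
SLC38A5: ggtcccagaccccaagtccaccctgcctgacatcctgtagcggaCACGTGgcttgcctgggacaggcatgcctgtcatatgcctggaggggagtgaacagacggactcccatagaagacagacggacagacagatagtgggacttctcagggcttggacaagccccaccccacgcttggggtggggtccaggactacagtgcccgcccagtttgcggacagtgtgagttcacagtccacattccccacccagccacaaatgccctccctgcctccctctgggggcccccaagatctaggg

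The E-box began 130 bases before the start in SLC7A5, 112 in SLC43A1 and 206 in SLC38A5, and the ATF4-type match of SLC3A2 lay after the start. Windows were found for 44 of the 59 members, 14 of them with more than 1 window. CACGTG was in a window of 10 of the 44 (22.7%), beside 8.77% of the 27305 genes with a window. A gene counted where any of its windows held the motif, and windows per gene were not matched between members and all genes. They were SLC1A5, SLC1A7, SLC6A16, SLC7A5, SLC7A7, SLC7A8, SLC36A1, SLC38A5, SLC38A7 and SLC43A1. The splits that follow cover only members with a window, which leaves out some members called lower or higher. CACGTG was in 6 of 10 lower on day 5 than on day 0, 1 of 2 higher, 2 of 17 tested without a call and 1 of 15 not tested. TGATGNAA was in 6 of 44 (13.6%), beside 4.46% of genes, namely SLC1A3, SLC1A4, SLC1A5, SLC3A2, SLC7A1 and SLC38A1, and split into 3 of 10 lower, 1 of 2 higher, 2 of 17 not called and 0 of 15 not tested. TGANTCA was also in 10 of 44 members (22.7%), beside 9.37% of genes. It was in 2 of 10 lower, 0 of 2 higher, 5 of 17 not called and 3 of 15 not tested. TGACNNNGC, in 15.9% of members beside 16.1% of genes, was in 5 of 10 lower, 0 of 2 higher, 2 of 17 not called and 0 of 15 not tested. In SLC1A5 the CACGTG and TGATGNAA matches lay in separate windows, and its most upstream window held neither. Shares among all genes called lower were not counted, so these splits have no background of their own. No split was tested. All 7 motifs searched were chosen after the members' values were seen. A match describes letters only and is neither a bound site nor a cause.

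Among the neutral exchangers of SLC1, SLC1A5 (ASCT2), a main route of glutamine into dividing cells, stood at 131 FPKM on day 0, 97.8 on day 3 and 63.3 on day 5 (hg19, chromosome 19, 47278140 to 47291842). Neither step alone was called, at log2 -0.42 ± 0.40 on day 3 over day 0 and -0.63 ± 0.35 on day 5 over day 3. Day 5 was 2.07-fold lower than day 0 (-1.05 ± 0.41, q 0.00110 by the authors' deposited table). SLC1A4 (ASCT1), which exchanges alanine, serine and cysteine, was called higher on day 3 and on day 5 than on day 0, yet stayed low at 0.114, 0.411 and 0.557 FPKM.

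In SLC38, 2 of 9 tested members were lower on day 5 than on day 0 and 0 higher, beside 14.7% and 12.2% of all genes tested, so the lower share is near the background. SLC38A2 (SNAT2), a glutamine carrier known to be induced when amino acids run short, was at 106 FPKM on day 0, 80.9 on day 3 and 62.8 on day 5. Neither step was called, and day 5 was lower than day 0 (log2 -0.76 ± 0.45, q 0.0385 by the authors' deposited table). SLC38A1 (SNAT1) was at 55.3, 63.9 and 40.2 FPKM without a call. SLC38A5 (SNAT5), a glutamine carrier coupled to protons, was at 22.2, 4.38 and 1.89 FPKM (hg19, chromosome X, 48316927 to 48328644). It was 5.06-fold lower on day 3 than on day 0 (-2.34 ± 0.40), 2.32-fold lower on day 5 than on day 3 (-1.22 ± 0.49) and 11.8-fold lower on day 5 than on day 0 (-3.55 ± 0.45). Of the remaining members, SLC38A3, SLC38A4, SLC38A6, SLC38A7, SLC38A9 and SLC38A10 were tested throughout without a call. SLC38A9, the lysosomal arginine sensor upstream of mTORC1, was at 11.6, 9.06 and 9.54 FPKM, with a ratio of day 5 over day 0 of -0.28 ± 0.44.

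No SLC36 gene was called. SLC36A4, a carrier of proline and tryptophan, was the most abundant at 12.2, 13.1 and 17.2 FPKM (day 5 over day 0, log2 0.50 ± 0.44). The lysosomal carrier SLC36A1 was at 2.27, 2.47 and 2.41 FPKM, and SLC36A2 at 0.382, 0.479 and 0.403.

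The glutamate carriers summed to 17.3 FPKM on day 0, 18.0 on day 3 and 16.9 on day 5, while single members moved in opposite directions. SLC1A1 (EAAT3), the carrier of neurons and kidney, was at 4.97, 0.629 and 2.03 FPKM. It fell by day 3 (log2 -2.98 ± 0.59), rose again by day 5 (1.69 ± 0.61) and remained lower on day 5 than on day 0 (-1.29 ± 0.51). SLC1A2 (EAAT2), the main glutamate carrier of astrocytes, was at 0.0980, 1.48 and 0.964 FPKM. It was 15.1-fold higher on day 3 than on day 0 (3.92 ± 0.53) and 9.83-fold higher on day 5 (3.30 ± 0.54), with no call between day 3 and day 5. The astrocyte marker GFAP was at 0.268, 0.165 and 0.0414 FPKM. SLC1A3 (EAAT1), known from radial glia, was the most abundant of the class at 7.64, 10.1 and 9.25 FPKM and was not called, nor was SLC1A6 (EAAT4) at 4.62, 5.82 and 4.68.

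In SLC6, SLC6A8, the creatine carrier, peaked on day 3, at 45.9 FPKM on day 0, 85.6 on day 3 and 37.6 on day 5 (hg19, chromosome X, 152953752 to 152962048). It was higher on day 3 than on day 0 (log2 0.90 ± 0.38, q 0.00844 by the authors' deposited table), lower on day 5 than on day 3 (-1.19 ± 0.35), and day 5 was not called against day 0 (-0.29 ± 0.39). The pseudogene SLC6A10P, a near-identical copy, was at 1.63, 2.72 and 1.07 FPKM. SLC6A9 (GlyT1), a glycine carrier, was at 6.71, 11.8 and 4.49 FPKM, lower on day 5 than on day 3 (-1.39 ± 0.46) with no call on day 3 over day 0 (0.81 ± 0.48), and its locus overlaps CCDC24. The summed neuron markers were also highest on day 3, and their part in these values was not tested.

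SLC6A6, the taurine carrier, was at 32.9, 16.6 and 18.1 FPKM, lower than on day 0 on day 3 (log2 -0.99 ± 0.41) and on day 5 (-0.86 ± 0.42), and its locus overlaps GRIP2. SLC6A15, a carrier of branched-chain amino acids and proline, was at 3.74, 3.66 and 7.66 FPKM, and rose between day 3 and day 5 (1.07 ± 0.50). The orphan member SLC6A16, whose locus overlaps MIR4324, was at 0.477, 1.28 and 2.37 FPKM, higher on day 3 (1.42 ± 0.64) and on day 5 (2.31 ± 0.60) than on day 0. SLC6A11, a GABA carrier, was at 0.496, 0.672 and 0.389 FPKM without a call. The dopamine carrier SLC6A3 was at 0.153, 0.407 and 0.0996 FPKM and was called lower on day 5 than on day 3.

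Genes around these carriers were counted in 8 lists, to be read beside the 14.7% of all genes tested that were lower and the 12.2% that were higher on day 5 than on day 0. No difference between lists was tested. A list of the amino acid response around ATF4 held 28 genes, and 28 were tested between day 0 and the later days. It includes ATF4 itself, EIF2AK4, EIF2AK3 and EIF2S1, so not every gene of the list is a target of ATF4. On day 3, 11 were lower and 0 higher than on day 0, beside 11.6% and 8.96% of all genes, and on day 5, 15 were lower and 0 higher, with a median log2 ratio of FPKM plus 1 of -0.77 on day 5 over day 0 beside -0.01 over all genes. ATF4 itself was at 483 FPKM on day 0, 322 on day 3 and 211 on day 5. Asparagine synthetase, ASNS, was at 110, 37.2 and 22.2 FPKM, CHAC1, which degrades glutathione, at 28.4, 5.14 and 2.55, and the mitochondrial enzyme PCK2 at 50.5, 12.9 and 6.48, each lower on both later days than on day 0. ATF3 was the gene of this list called higher on day 5 than on day 3, at 22.6 FPKM against 7.39. Of 23 genes of the cytosolic aminoacyl-tRNA synthetases, 10 were lower and 0 higher on day 5 than on day 0 (median -0.59, beside 14.7% and 12.2% of all genes), TARS at 22.8 FPKM against 141.

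Of the genes that sense amino acids for mTORC1, 2 of 34 tested were lower and 2 higher on day 5 than on day 0 (median -0.15), both shares below those of all genes, 14.7% and 12.2%. SESN3, a sestrin, was at 10.9, 31.2 and 46.7 FPKM and rose, and DEPTOR, an mTOR inhibitor, was at 1.34, 0.209 and 0.0830 and fell. Of 18 genes of cystine use and glutathione, 7 were lower and 0 higher on day 5 than on day 0 (median -0.35), among them GCLC at 8.63 FPKM against 16.9 and NQO1 at 3.58 against 13.5. SLC7A11, which belongs to both that list and the members, was not called. Glutamine and glutamate enzymes counted 4 lower and 0 higher of 13 on day 5 against day 0 (median -0.25), beside the same 14.7% and 12.2%, with GLS2, the liver-type glutaminase, at 0.923 FPKM against 7.92. Enzymes of arginine, proline and branched-chain amino acids counted 6 lower and 1 higher of 15 (median -0.58). ASS1, which makes argininosuccinate on the way to arginine, was at 98.0, 58.5 and 18.4 FPKM and was lower on each later day. ODC1, which turns ornithine into putrescine, was at 303 FPKM on day 3 against 61.3 on day 0, and was higher on both later days than on day 0.

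Glycine, GABA, taurine and creatine genes counted 3 lower and 2 higher of 14 on day 5 against day 0 (median -0.12), close to the 14.7% and 12.2% of all genes tested. GAD1, which makes GABA, was at 0.649, 7.73 and 4.68 FPKM, and GAMT, which makes creatine, at 15.1, 28.7 and 32.4, both higher on each later day than on day 0. Amino acid carriers outside the 7 families counted 5 lower and 0 higher of 17 (median -0.36), beside the same shares of all genes, with the aromatic amino acid carrier SLC16A10 at 1.11 FPKM against 3.29 on day 0.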

How the data were processed

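The deposited table gives, per the file headers, 1 FPKM value per gene and group in the format of Cuffdiff, which the authors computed with the libraries of a group combined. Per the submitters' processing notes, the build was hg19 and the tools included Cuffdiff 2.1.1, TopHat and TopHat2 2.0.10. The sources used here do not give annotation, strandedness or depth. The test statistic that the authors deposited is a score. Calls used the q-value and p-value deposited from the authors' Cuffdiff run. The q equals a Benjamini-Hochberg adjustment over the 48572 tested rows of the table, to within 5.25e-07. Start positions were taken as counted from 0 and are printed from 1.

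Genes with status OK were tested, and called at a q below 0.05. Log2 ratios were computed from FPKM, and the implied standard error is that ratio over the test statistic. Medians over lists use log2 after adding 1 FPKM. A total of 28 members were named by rule: 14 set by role, those called at 1 FPKM or more, the top member of each family, and those whose call changed under an alternative, with others added after their values were seen, to complete classes. Members and lists were chosen with earlier results of these data known. Promoter windows came from RefSeq (GRCh38.p14), searched for 7 motifs chosen after values were seen. Adjustment code was tested on simulated data. Python 3.11.15, pandas 2.3.3 and scipy 1.17.1 were used. No column of FPKM values was left out. Counts and sums cover every member, of which 1 is not reported here.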

Additional observations from a re-analysis of the deposited data

How the results depend on the processing

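No paired analysis was possible because the table holds 1 combined value per group, and for the same reason no library could be left out. With a q below 0.01, members higher on day 3 than on day 0 numbered 2 instead of 6, and members lower on day 5 than on day 3 numbered 3 instead of 9. Under the normal distribution of the test statistic, 1 member was higher and 5 lower on day 3 against day 0, 1 higher and 3 lower on day 5 against day 3, and 3 higher and 7 lower on day 5 against day 0. Shares of all tested genes were not counted under these alternative rules. Whether the members' shares still exceed those of all genes there is therefore not known. With at least 1 FPKM in the higher group, 2 members were higher on day 5 than on day 0, since the others, SLC1A2 and SLC1A4 among them, are below that level. Adjusting within each comparison changed no member's call, and a minimum of 2-fold kept every count within 1.5 times. Among members at a mean of 1 FPKM or more, the median log2 ratio of day 3 over day 0 was -0.026 instead of 0.09. The matching median over all genes was not computed. MIR4461, MIR1244-1 and MIR1244-3, named as microRNA genes, held 27.0% of all FPKM on day 0, 25.9% on day 3 and 21.9% on day 5. What RNA gave the reads counted there is not known. Rescaling without them adds 0.15 to every log2 ratio of day 5 over day 3 and 0.13 to those of day 5 over day 0. The members' medians then were -0.19 and -0.13 instead of -0.29 and -0.25, and no called member changed direction. The same shift applies to all genes, whose medians were not recomputed, so these values do not show a smaller gap to all genes. The counts of members at 1 FPKM or more stayed within 1.5 times with a minimum of 0.5 or 2 FPKM. After rescaling without the microRNA genes the count was 31 on every day, against 29 on day 5 before it. Without values per library, the depth behind values under 1 FPKM is unknown.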

Other observations

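Several members lie within 100 kb of each other in hg19. SLC43A1 and SLC43A3 are separated by 57.0 kb on chromosome 11 and started level, at 10.7 and 10.8 FPKM on day 0, but stood at 0.286 and 3.87 FPKM on day 5. SLC38A1 and SLC38A2, 88.8 kb apart on chromosome 12, were both abundant on every day. SLC36A2 and SLC36A3, 11.2 kb apart on chromosome 5, were at 0.382 and 0.00851 FPKM on day 0.

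A further 5 motifs were searched in the promoter windows of 44 members. CACGCG was in 20.5% of the members and 13.5% of all genes with a window, TGANTCA in 22.7% and 9.37%, CTTTGA, the core bound by TCF and LEF factors, in 13.6% and 15.5%, TGACNNNGC in 15.9% and 16.1%, and TATAAA in 11.4% and 14.0%. Among members with a window that were lower on day 5 than on day 0, CACGCG was in 4 of 10, CTTTGA in 1 of 10 and TATAAA in 1 of 10. Among those with a window tested without a call they were in 3, 2 and 3 of 17. These shares describe letters in the windows and were not tested.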
